A study of Mus musculus with 8 samples.

Results

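The genes described here were the 37 genes of the mouse mitochondrial genome, 13 messenger RNAs, 2 ribosomal RNAs and 22 transfer RNAs. They were taken as every identifier whose GENCODE symbol begins with *mt-*, each counted once, and made up 37 of the 52325 genes listed. This group was chosen on its share of the expression values, which was higher in the *Mir140*-null libraries than in WT, so differences between the genotypes are given for these genes as a description, with no p-value, and counts of genes called by the fit across all genes are printed only beside the same counts over all genes. RNA was sequenced from costal (rib) chondrocytes of 7-d-old mice from lines backcrossed onto C57BL/6J. There were 4 wild-type (WT) libraries and 4 from mice homozygous for a deletion of *Mir140* (*Mir140*-null). The deletion was made by CRISPR/Cas9 in zygotes of mixed C57BL/6 and CBA/ca background, so it is not limited to cartilage. Carriers were backcrossed to C57BL/6J, and repeated crosses of heterozygous animals eventually gave a WT and a *Mir140*-null line. Other differences between these lines cannot be told apart from the deletion here. The cells were released from the ribs with collagenase, and poly(A)-containing RNA was made into stranded libraries. Values are transcripts per 1000000 (TPM), which are meant to scale each gene by its length and bring each library to the same total. The sources used here do not say whether each library came from a separate animal, so the spread between libraries may be partly technical.

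Mitochondrial DNA is a small circle that is read from both strands into long precursor RNAs. Transfer RNAs lie between most of the other genes, and RNase P and Elac2 cut them out at their ends. This frees most of the messenger and ribosomal RNAs, and most of these are then polyadenylated by Mtpap. All of the messenger RNAs encode membrane subunits of the respiratory chain and ATP synthase, which are assembled with many subunits encoded in the nucleus. *mt-Nd6* and 8 of the transfer RNAs are on the minus strand of the reference, and the other genes are on the plus strand. Cartilage has no blood vessels, and chondrocytes are known for a metabolism that leans on glycolysis.

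The libraries carried the collagen of cartilage at a high level (*Col2a1*, 34418 to 61630.1 TPM over the 8 libraries). *Mir140* itself did not separate the genotypes. Its value was 0 in 7 libraries, all 4 of WT among them, and 8.86 TPM in the other, labelled *Mir140*-null replicate 2. With a value of 0 in all 4 WT libraries too, this gene cannot check the labels. According to the methods, the mice were genotyped by PCR of ear notches and by Sanger sequencing. A supplementary legend of the paper states that the mature miR-140 strands were measured by quantitative PCR in rib chondrocyte RNA. It adds that RNA from several of those samples was then sequenced. Without the library labelled *Mir140*-null replicate 2, the log2 difference in the summed messenger RNAs given below was 0.88 in place of 0.84, and *Mir140*-null replicate 2 stands below for the library with that label. Depth is not kept by TPM. The methods give only a lower limit on the reads per sample, so the depth of each library is unknown here.

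The sequences that bear on how these genes can be counted are shown first, from the GENCODE M21 transcripts on mm10, written 5′ to 3′. The transfer RNA gene with the highest level, *mt-Ts1* (ENSMUSG00000064352), lies at chrM:6870-6938 on the minus strand, is 69 bases long and runs 3 bases into the end of *mt-Co1* on the plus strand. The shared bases are in capitals in both.
mt-Ts1: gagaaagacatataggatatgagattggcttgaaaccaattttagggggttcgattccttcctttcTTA
mt-Co1 end: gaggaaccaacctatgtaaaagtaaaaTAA
The messenger RNA with the highest level, *mt-Atp8* (ENSMUSG00000064356), lies at chrM:7766-7969 on the plus strand, and its last 43 of 204 bases, in capitals, are also the first bases of *mt-Atp6*.
mt-Atp8: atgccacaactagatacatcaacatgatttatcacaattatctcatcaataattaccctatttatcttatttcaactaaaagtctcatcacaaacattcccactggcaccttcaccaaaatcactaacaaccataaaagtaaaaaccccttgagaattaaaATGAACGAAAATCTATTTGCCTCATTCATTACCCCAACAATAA
The ends of *mt-Nd5* (ENSMUSG00000064367, chrM:11742-13565, plus strand) and *mt-Nd6* (ENSMUSG00000064368, chrM:13552-14070, minus strand) face each other and share the 14 bases in capitals on opposite strands.
mt-Nd5 end: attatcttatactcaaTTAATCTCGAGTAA
mt-Nd6 end: tttattattatcgagaTTACTCGAGATTAA
Of the 13 messenger RNA genes, *mt-Co3*, *mt-Nd4* and *mt-Cytb* have a length that leaves 1 base over after division into codons and end in a single T, in capitals below, so that their stop codon exists only once a poly(A) tail has been added. *mt-Nd1* is shown for comparison, with a stop codon in capitals that is complete only by the annotated coordinates. The last 2 of its bases also belong to *mt-Ti* on the same strand, and *mt-Nd2* shares 2 bases with *mt-Tw* in the same way. Which gene keeps these bases after cutting was not examined.
mt-Co3 last 30 bases: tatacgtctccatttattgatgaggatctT
mt-Cytb last 30 bases: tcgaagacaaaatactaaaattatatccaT
mt-Nd1 last 30 bases: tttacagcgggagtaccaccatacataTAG

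The 37 genes took up 4.06, 4.94, 6.99 and 4.995% of TPM in WT replicates 1 to 4 and 8.80, 8.41, 10.1 and 8.55% in *Mir140*-null replicates 1 to 4. These are the values on which the genes were chosen, and every *Mir140*-null library was above every WT library. Both *mt-Ts1* and *mt-Atp8* are shorter than most messenger RNAs, and together they held 58.2 to 64.2% of the mitochondrial TPM. Without these 2 genes, the other 35 made up 1.57 to 2.63% of TPM in WT and 3.01 to 3.96% in *Mir140*-null. The gap between the genotypes was therefore also present in the sum of the other genes, which is itself part of the share used to choose them. It was not present in each of them. The 2 ribosomal RNAs overlapped, at 0.343 to 0.456% of TPM in WT and 0.255 to 0.415% in *Mir140*-null. With TPM multiplied by annotated transcript length, the 37 genes took 0.783 to 1.32% of the total in WT and 1.36 to 1.91% in *Mir140*-null. The values of the shortest genes did not follow that length, as described below, so this is not a share of sequenced bases. In bulk RNA, more mitochondria per cell, more RNA per mitochondrion and a change in the other RNAs of the library cannot be told apart.

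**Figure D1:**
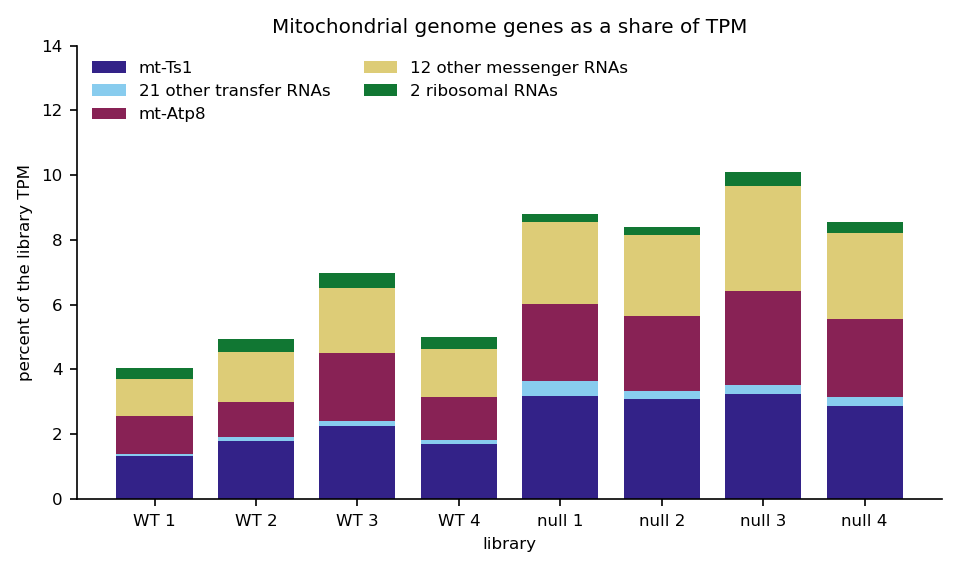
Share of each library's TPM (percent, vertical axis) taken by *mt-Ts1*, the other transfer RNAs, *mt-Atp8*, the other messenger RNAs and the 2 ribosomal RNAs, for 4 WT and 4 *Mir140*-null libraries (horizontal axis). The whole bars run from 4.06% to 6.99% in WT and from 8.41% to 10.1% in *Mir140*-null, while the ribosomal RNA layer stays below 0.5% in all 8.

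Among all 37 genes, 31 passed the filter of at least 0.5 TPM in at least 4 libraries, 15 were called higher in *Mir140*-null by limma and 0 were called lower. Across all 17177 genes tested, 1797 (10.5%) were called higher and 1100 (6.4%) lower. The *Mir140*-null libraries were all above the WT libraries for 16 of the 37 genes and all below for 0, against 15.7% and 10.2% of all genes tested. As the genes were chosen on this contrast, nothing is read from these counts. The calls were 10 of the 13 messenger RNAs, 0 of the 2 ribosomal RNAs and 5 of the 22 transfer RNAs.

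All 13 messenger RNAs had a higher mean in *Mir140*-null, with log2 fold changes of 0.68 to 1.39 (median 0.84, beside -0.01 over all genes tested). Their summed level was 23113, 26485, 41317 and 28139 TPM in WT replicates 1 to 4 and 49059, 47978, 61432 and 50689 TPM in *Mir140*-null replicates 1 to 4. The lowest *Mir140*-null library was above the highest WT library, replicate 3, which stood well above the other WT libraries. The difference of the mean log2 sums was 0.84 (SD 0.28 within genotypes), and it was 1.01 without WT replicate 3.

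**Figure D2:**
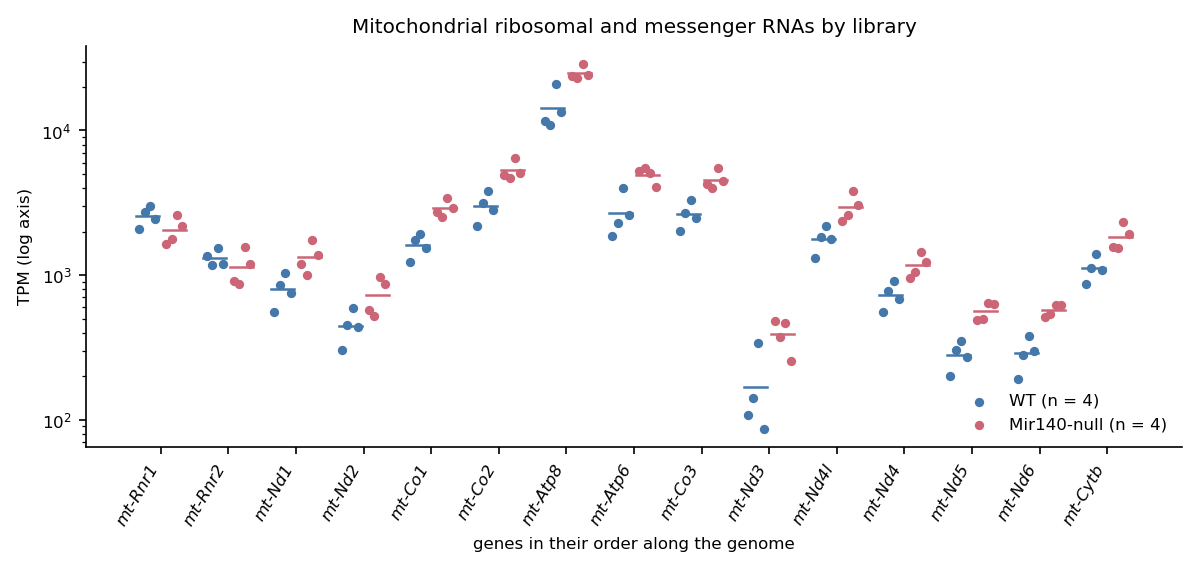
TPM (vertical log axis) of the 2 ribosomal and 13 messenger RNAs in their order along the genome (horizontal axis), with 1 point per library and a bar at the mean of each genotype. The 13 messenger RNAs have higher *Mir140*-null means, and both ribosomal RNAs have lower ones with overlapping points.

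Complex IV, cytochrome c oxidase, passes electrons to oxygen, and its 3 mitochondrial subunits form its catalytic core. *mt-Co1*, which binds the haems at which oxygen is reduced, was at 1236, 1744, 1931 and 1527 TPM in WT replicates 1 to 4 and 2745, 2522, 3434 and 2913 TPM in *Mir140*-null replicates 1 to 4 (log2 fold change, *Mir140*-null minus WT, 0.86, SE 0.16). The genotypes did not overlap for this gene, nor for the other 2 subunits of the complex. *mt-Co2*, which takes electrons from cytochrome c, was at 2188, 3149.7, 3804 and 2802 TPM in WT replicates 1 to 4 and 4919, 4705, 6418 and 5117 TPM in *Mir140*-null replicates 1 to 4, a log2 fold change of 0.84 (SE 0.18). *mt-Co3* was at 2019, 2705, 3320.1 and 2489 TPM in WT replicates 1 to 4 and 4247, 4027, 5535 and 4489.8 TPM in *Mir140*-null replicates 1 to 4, a log2 fold change of 0.81 (SE 0.17). WT replicate 1 was lowest and WT replicate 3 highest of the WT libraries for all 3 genes, and *Mir140*-null replicate 3 was the highest of all.

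Complex V, the ATP synthase, has 2 mitochondrial subunits in its membrane part, with *mt-Atp6* forming the proton path. *mt-Atp8* was the highest messenger RNA in each of the 8 libraries, at 11718, 10842, 21037 and 13332 TPM in WT replicates 1 to 4 and 23766, 23172, 28946 and 24178 TPM in *Mir140*-null replicates 1 to 4 (log2 fold change 0.86, SE 0.21). WT replicate 3 was close to the lowest *Mir140*-null library, and the other WT libraries were well below it. *mt-Atp6* was at 1859.7, 2275, 4031 and 2586 TPM in WT replicates 1 to 4 and 5254, 5465, 5070.1 and 4053 TPM in *Mir140*-null replicates 1 to 4, with a log2 fold change of 0.94 (SE 0.23). Here the lowest *Mir140*-null library, replicate 4, and the highest WT library, replicate 3, were nearly level, so the absence of overlap rests on a small gap. In complex III, *mt-Cytb*, its only mitochondrial subunit, was at 864, 1121, 1400.0 and 1087 TPM in WT replicates 1 to 4 and 1555, 1535, 2325 and 1938 TPM in *Mir140*-null replicates 1 to 4, a log2 fold change of 0.72 (SE 0.19). All *Mir140*-null libraries were above WT replicate 3, the highest WT library, and replicates 1 and 2 were the nearest to it.

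Complex I, the NADH dehydrogenase, has 7 mitochondrial subunits, all in its membrane arm, and they split into those with separate and those with overlapping genotypes. *mt-Nd5*, one of the proton-pumping subunits, was at 199, 305, 352 and 272 TPM in WT replicates 1 to 4 and 492, 499, 644 and 632 TPM in *Mir140*-null replicates 1 to 4 (log2 fold change 1.02, SE 0.19). *mt-Nd6*, on the other strand, was at 191, 282, 379 and 297 TPM in WT replicates 1 to 4 and 513, 535, 624 and 620.0 TPM in *Mir140*-null replicates 1 to 4 (log2 fold change 1.03, SE 0.20). Both were separate between the genotypes by a wider margin than the other subunits of the complex. *mt-Nd4* and *mt-Nd4l* were also separate, with log2 fold changes of 0.68 (SE 0.18) and 0.73 (SE 0.20). *mt-Nd1*, *mt-Nd2* and *mt-Nd3* overlapped, in each case because WT replicate 3 was above at least 1 *Mir140*-null library. *mt-Nd1* was at 559, 858, 1031 and 756 TPM in WT replicates 1 to 4 and 1189, 994, 1745 and 1369 TPM in *Mir140*-null replicates 1 to 4, and *mt-Nd2* at 305, 449, 587 and 439 TPM in WT replicates 1 to 4 and 576, 522, 969 and 864 TPM in *Mir140*-null replicates 1 to 4. *mt-Nd3* had the lowest level of the 13, 107, 141, 337 and 86.1 TPM in WT replicates 1 to 4 and 477, 370.2, 467 and 256 TPM in *Mir140*-null replicates 1 to 4, and the widest error, 1.39 (SE 0.41).

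In the order of TPM, *mt-Atp8* ranked first of the 15 messenger and ribosomal RNAs in all 8 libraries and *mt-Nd3* last. As the values of some short genes did not follow their annotated length (below), this is not strictly an order per length. *mt-Co2*, *mt-Atp6* and *mt-Co3* exchanged ranks 2 to 5 between libraries, as did *mt-Nd5* and *mt-Nd6* in ranks 12 to 14, so their order does not hold beyond the spread. *mt-Rnr1* ranked between 3 and 7 and *mt-Rnr2* between 6 and 11. The ratio of *mt-Nd5* to *mt-Nd1*, 2 subunits of the same complex coded on the same strand, was 0.341 to 0.361 in WT and 0.369 to 0.501 in *Mir140*-null, without overlap. Those of *mt-Nd2*, *mt-Nd4*, *mt-Cytb* and *mt-Co1* to *mt-Nd1* overlapped. *mt-Co2* and *mt-Co3* kept nearly the same proportion throughout, with a *mt-Co3* to *mt-Co2* ratio of 0.856 to 0.923 over the 8 libraries.

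The ribosomal RNAs went the other way in their means. *mt-Rnr1*, the RNA of the small mitochondrial ribosomal subunit, was at 2067, 2717, 3025 and 2434 TPM in WT replicates 1 to 4 and 1647, 1762, 2593 and 2188 TPM in *Mir140*-null replicates 1 to 4 (log2 fold change -0.33, SE 0.18). *mt-Rnr2*, the RNA of the large subunit, was at 1358, 1173, 1537 and 1189 TPM in WT replicates 1 to 4 and 903, 868, 1557 and 1199.8 TPM in *Mir140*-null replicates 1 to 4 (log2 fold change -0.25, SE 0.20). The genotypes overlapped for both genes, and *Mir140*-null replicates 1 and 2 were the lowest. The sum of the 10 messenger RNAs over 500 bases, divided by the sum of the 2 ribosomal RNAs, was 2.91, 3.51, 3.89 and 3.57 in WT replicates 1 to 4 and 8.80, 8.30, 6.80 and 6.85 in *Mir140*-null replicates 1 to 4. For *mt-Nd1* against *mt-Rnr2*, its neighbour in the same precursor, with only *mt-Tl1* between them, the ratio was 0.412 to 0.732 in WT and 1.12 to 1.32 in *Mir140*-null. Neither ratio depends on how a library is scaled, and neither overlapped. Mitochondrial ribosomal RNAs carry only short tails, so these libraries do not measure their full amount.

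Some sets looked at for RNAs that poly(A) selection should leave behind separated the genotypes and others did not. The summed level of the histone cluster genes, most of whose messenger RNAs have no poly(A) tail, was 2163 to 2899.7 TPM in WT and 195 to 1032 TPM in *Mir140*-null. Genes shorter than 200 bases outside the mitochondrial genome took 18.8% to 21.3% of TPM in WT and 15.6% to 17.3% in *Mir140*-null. The GENCODE class of miscellaneous RNAs took 2.39% to 3.48% of TPM in WT and 0.907% to 1.30% in *Mir140*-null. These 3 sets were lower in every *Mir140*-null library than in every WT library. The set of short genes was picked by length alone, so it can hold other kinds of RNA and share genes with the other sets. The 3 sets are thus not separate results. The TPM of the shortest genes also did not follow their length, as described below. Outside these sets, 2 nuclear long RNAs were looked at. *Neat1* was also lower in every *Mir140*-null library, at 758 to 1110 TPM in WT and 228 to 391 TPM in *Mir140*-null. *Malat1* overlapped, at 400 to 677 TPM in WT and 270 to 420 TPM in *Mir140*-null. The genotypes overlapped for small nucleolar RNAs (0.935% to 1.13% of TPM in WT and 0.895% to 1.23% in *Mir140*-null), small nuclear RNAs (0.396% to 0.605% and 0.284% to 0.513%), the nuclear ribosomal RNA class (0.205% to 0.501% and 0.148% to 0.360%) and microRNA genes (6.01% to 7.91% and 5.69% to 6.403%). The part of these RNAs in the mitochondrial values was not tested. With the genes under 200 bases left out and the libraries rescaled, the difference in the summed messenger RNAs was 0.78.

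By their coordinates, 9 pairs of these genes share bases. Ratios are given for 4 of them, in which 3 to 43 bases are shared. The other 5 pairs share 1 to 3 bases, and 4 of those pairs hold a transfer RNA. The ratio of *mt-Nd6* to *mt-Nd5* was 0.926 to 1.09, so that the only messenger RNA of the minus strand had the level of the facing gene in all 8 libraries. That of *mt-Nd4l* to *mt-Nd4* was 2.35 to 2.62, and that of *mt-Atp8* to *mt-Atp6*, which share 1 messenger RNA, was 4.24 to 6.30. *mt-Ts1* was 9.42 to 12.2 times *mt-Co1*. None of these ratios separated the genotypes. The libraries were stranded, but the strand setting of the quantification is not given in the sources used here, and reads of a gene and of its antisense partner cannot be told apart in these values.

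The transfer RNAs, which carry amino acids to the mitochondrial ribosome, are 59 to 75 bases long, no longer than the reads of 75 bases. The libraries were made from poly(A)-containing RNA. Their values cannot tell a freed transfer RNA from a longer RNA that holds its sequence. The values below are thus listed for each transfer RNA gene and are not amounts of mature transfer RNA. The values of the transfer RNA genes moved in steps. In each library the commonest value above 0 among other genes of this size, 14.1 to 21.5 TPM, divided all transfer RNA values into whole numbers to within 0.01 of a step, other than some of *mt-Ts1*. *mt-Nd3*, at 348 bases, was a whole number of the same steps in all 8 libraries, from 4 to 33. For these genes a step was thus the same whatever the annotated length, so their TPM were not scaled by that length. Most transfer RNAs held only a few steps, so that a difference of 1 step is a large part of their level.

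**Figure D3:**
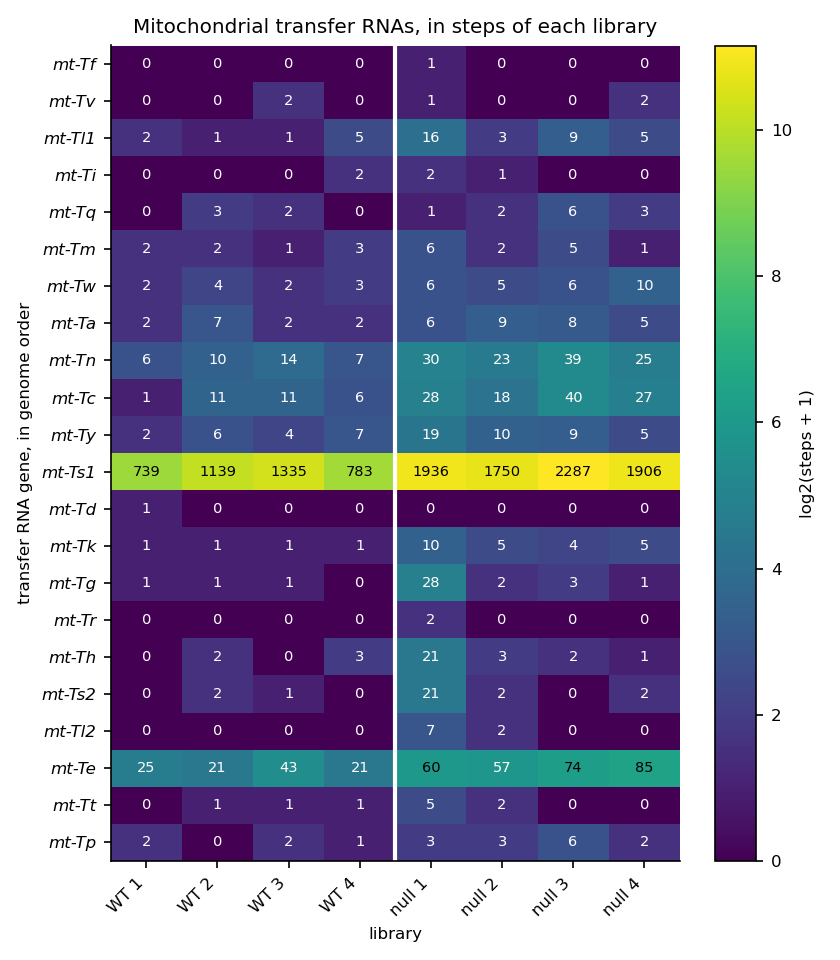
The 22 mitochondrial transfer RNAs (rows, in genome order) in 4 WT and 4 *Mir140*-null libraries (columns), each cell showing the TPM divided by the step of its library and coloured by log2(steps + 1). *mt-Ts1* is far above the rest in all 8 libraries, *mt-Te*, *mt-Tn* and *mt-Tc* follow, and *Mir140*-null replicate 1 is high from *mt-Tg* to *mt-Tl2*.

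*mt-Ts1*, a transfer RNA for serine, was at 13189.5, 17883, 22489 and 16858 TPM in WT replicates 1 to 4 and 31865, 30848, 32357 and 28740.3 TPM in *Mir140*-null replicates 1 to 4 (log2 fold change 0.84, SE 0.16), which is 739 to 1335 steps in WT and 1750 to 2287 in *Mir140*-null. It held 92.7 to 94.1% of the transfer RNA TPM in WT and 87.6 to 92.2% in *Mir140*-null. The genotypes did not overlap for the gene itself. The other 21 transfer RNAs summed to 839 to 1482 TPM in WT and 2627 to 4493 TPM in *Mir140*-null, also without overlap. *mt-Te*, for glutamate, stood at 25, 21, 43 and 21 steps in WT replicates 1 to 4 and 60, 57, 74 and 85 in the *Mir140*-null libraries. *mt-Tn*, for asparagine, stood at 6, 10, 14 and 7 steps in WT replicates 1 to 4 and 30, 23, 39 and 25 in the *Mir140*-null libraries, and *mt-Tc*, for cysteine, at 1, 11, 11 and 6 steps in WT replicates 1 to 4 and 28, 18, 40 and 27 in the *Mir140*-null libraries. These 4 genes are all annotated on the minus strand and each was higher in every *Mir140*-null library than in any WT library. *mt-Tk*, for lysine, and *mt-Tw*, for tryptophan, were also separate and are annotated on the plus strand. The other minus-strand transfer RNAs, *mt-Tq*, *mt-Ta*, *mt-Ty* and *mt-Tp*, overlapped. As the strand setting of the quantification is not given, the annotated strand need not be that of the RNA counted. *mt-Tk* stood at 1, 1, 1 and 1 steps in WT replicates 1 to 4 and 10, 5, 4 and 5 in the *Mir140*-null libraries, and the gap for *mt-Tw*, with at most 4 steps in WT and at least 5 in *Mir140*-null, was a single step.

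By annotated strand, the 7 minus-strand transfer RNAs other than *mt-Ts1* summed to 678, 911, 1314 and 947 TPM in WT replicates 1 to 4 and 2419, 2151, 2575 and 2292 TPM in *Mir140*-null replicates 1 to 4. The 14 plus-strand transfer RNAs summed to 161, 219.8, 168 and 388 TPM in WT replicates 1 to 4 and 2074, 476, 410.2 and 407 TPM in *Mir140*-null replicates 1 to 4. *Mir140*-null replicate 1 was set apart on the plus strand, and the gap between the other *Mir140*-null libraries and WT replicate 4 was small. That library held 28 steps of *mt-Tg*, 21 of *mt-Th*, 21 of *mt-Ts2* and 16 of *mt-Tl1*, where no other library held more than 3 of the first 3 genes or more than 9 of *mt-Tl1*. *mt-Tf* and *mt-Tr* were listed at 0 in every library but this one. *mt-Tl2* was listed at 0 in 6 libraries and stood at 7 steps in replicate 1 and 2 steps in the library labelled *Mir140*-null replicate 2. *mt-Td* was listed at 0 in every library but WT replicate 1, which held 1 step. The remaining transfer RNAs, *mt-Tv*, *mt-Ti*, *mt-Tq*, *mt-Tm*, *mt-Ta*, *mt-Ty*, *mt-Tt* and *mt-Tp*, overlapped between the genotypes and held at most 19 steps in any library.

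Pieces of mitochondrial DNA have been copied into the nuclear genome in the course of evolution, and reads from the mitochondrial RNA can be assigned to such a copy. A stretch of chromosome 1 held near-identical copies of several messenger RNAs, all annotated as unprocessed pseudogenes on the minus strand of mm10. *Gm29216* (chr1:24615706-24616197), which matches 483 bases at the end of *mt-Co1* at 99.8% identity, was listed at 2055, 2710.0, 3353 and 2744 TPM in WT replicates 1 to 4 and 4866, 4126, 4758 and 4563 TPM in *Mir140*-null replicates 1 to 4. It was above *mt-Co1* in all 8 libraries and was singled out after its values were seen, since it covers less than the 50% of a gene that was required of a copy. It held 58.1 to 64.3% of the sum of both, and this sum was 3290.4 to 5284 TPM in WT and 6648 to 8192 TPM in *Mir140*-null.

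*Gm10925* (chr1:24613974-24614651), identical to *mt-Atp6* over 678 of its 681 bases, was listed at 921, 1666, 739 and 947 TPM in WT replicates 1 to 4 and 722, 439.6, 2027 and 2034 TPM in *Mir140*-null replicates 1 to 4. Its share of the sum with *mt-Atp6* ranged from 7.44% to 42.3% over the libraries and overlapped between the genotypes. Added together, the pair kept a steady proportion to *mt-Co3*, 1.28 to 1.47, where the ratio of *mt-Atp6* alone ranged from 0.841 to 1.36. *Gm28438* (chr1:24612775-24613119), 99.7% identical to *mt-Nd3* over 345 bases, was listed above *mt-Nd3* in all WT libraries and in 3 of the 4 *Mir140*-null libraries, at 340.2, 404, 543 and 490.5 TPM in WT replicates 1 to 4 and 309, 394, 868 and 690.0 TPM in *Mir140*-null replicates 1 to 4. The sum of *mt-Nd3* and this copy was 447 to 880.2 TPM in WT and 765 to 1335 TPM in *Mir140*-null, so the genotypes overlapped with and without the copy. *Gm28439* (chr1:24611535-24612410), identical to *mt-Nd4* over 876 bases, held 30.5 to 37.3% of its pair. The sum of that pair overlapped between the genotypes, with 882 to 1448 TPM in WT and 1395 to 2114 TPM in *Mir140*-null, where *mt-Nd4* alone did not. The copies of *mt-Co2*, *mt-Co3* and *mt-Nd4l* in the same stretch, *Gm28661*, *Gm28437* and *Gm10222*, were listed at no more than 25.8, 7.76 and 0 TPM in spite of 100% identity. With copies of at least 50% of a gene added to their genes, the log2 difference in the summed messenger RNAs was 0.81.

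**Figure D4:**
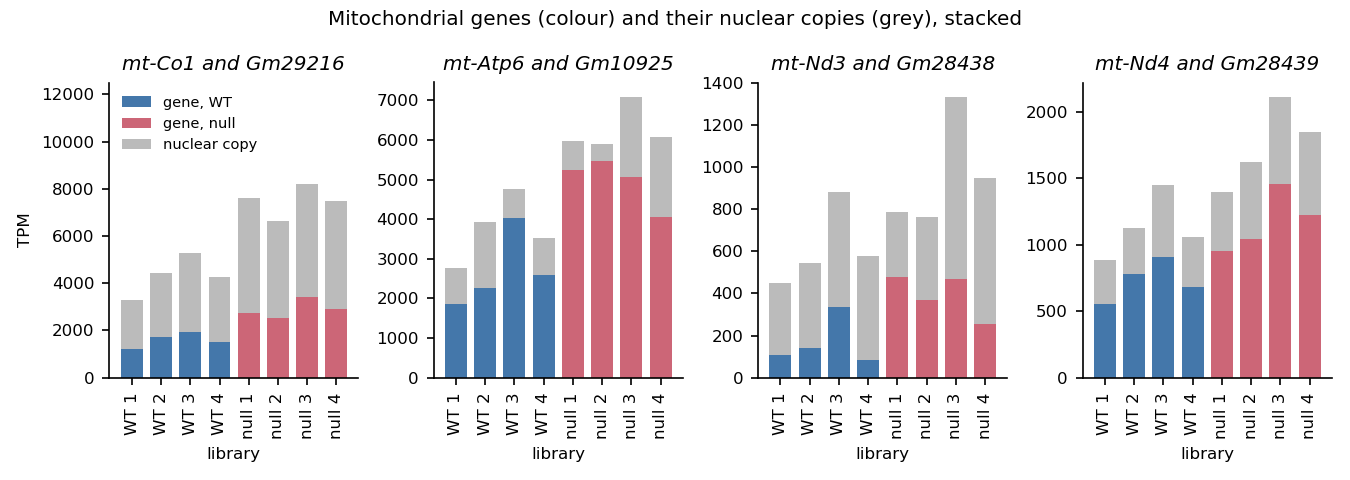
TPM (vertical axis) of 4 mitochondrial genes, blue in WT and red in *Mir140*-null, with the TPM of the nuclear copy stacked on top in grey, for each of the 8 libraries (horizontal axis). The copy of *mt-Co1* is larger than the gene in every library, and the grey share of *mt-Atp6* changes from library to library.

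Next, the nuclear genes that keep, read and process the mitochondrial genome were tested, as they were not used to choose the mitochondrial genes. Their lists, and those of the regulators and nuclear subunits below, were drawn up with earlier results of these data known. The tests are thus not independent of those results. Of 90 genes in 3 lists, 87 were tested, 8 rose and 3 fell in *Mir140*-null, or 9.2% and 3.45% of those tested, close to or under the shares over all genes given above. The median log2 fold change was 0.12. In the list for maintenance and transcription of the DNA, 19 of 21 genes were tested, 4 rose and 1 fell (21.1% and 5.26% of those tested). *Tfb2m*, which opens the promoter for the mitochondrial RNA polymerase, was at 12.5 ± 2.94 TPM in WT and 25.4 ± 2.40 TPM in *Mir140*-null (SD, n = 4 each, log2 fold change 0.998, SE 0.19, limma adjusted p = 0.014). *Tfam*, which packages the DNA and activates its promoters, was at 16.8 ± 2.57 TPM in WT and 28.2 ± 6.87 TPM in *Mir140*-null (SD, n = 4 each, log2 fold change 0.70, SE 0.18, limma adjusted p = 0.035). *Twnk*, the replicative helicase, went from 2.13 to 4.001 TPM (log2 fold change 0.69, SE 0.15, limma adjusted p = 0.023), and *Mgme1*, an exonuclease of replication, went from 1.42 to 2.25 TPM (log2 fold change 0.42, SE 0.11, limma adjusted p = 0.038). *Polg2*, the accessory subunit of the DNA polymerase, fell, at 9.95 ± 1.37 TPM in WT and 5.44 ± 0.958 TPM in *Mir140*-null (SD, n = 4 each, log2 fold change -0.77, SE 0.15, limma adjusted p = 0.016). *Polrmt*, the RNA polymerase itself, did not pass the test (4.46 and 5.14 TPM, limma adjusted p = 0.61).

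Among 46 genes for RNA processing, modification, stability and decay, 1 rose and 1 fell. *Mtpap*, the poly(A) polymerase of mitochondrial messenger RNAs, rose, at 7.98 ± 0.926 TPM in WT and 14.5 ± 3.72 TPM in *Mir140*-null (SD, n = 4 each, log2 fold change 0.77, SE 0.18, limma adjusted p = 0.027). *Rexo2*, which degrades short RNA fragments, fell, at 129.7 ± 18.9 TPM in WT and 77.4 ± 14.1 TPM in *Mir140*-null (SD, n = 4 each, log2 fold change -0.74, SE 0.16, limma adjusted p = 0.021). The other genes of the list did not pass the test. *Lrpprc* and *Slirp*, whose proteins together bind and stabilize the messenger RNAs, had log2 fold changes of 0.11 (SE 0.22) and -0.00059 (SE 0.13). *Pnpt1* and *Supv3l1*, which degrade RNA in the matrix, had 0.37 (SE 0.13) and 0.69 (SE 0.43). *Elac2* and *Trmt10c*, which act at the ends of the transfer RNAs, had 0.33 (SE 0.26) and 0.29 (SE 0.11).

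Among 23 genes that charge the transfer RNAs, 22 were tested, 3 rose and 1 fell (13.6% and 4.55% of those tested). *Yars2*, which charges the tyrosine transfer RNA, was at 3.38 ± 0.727 TPM in WT and 10.7 ± 4.27 TPM in *Mir140*-null (SD, n = 4 each, log2 fold change 1.37, SE 0.24, limma adjusted p = 0.013). *Gars*, which serves glycine in both the cytosol and mitochondria, rose from 71.8 to 128 TPM (log2 fold change 0.83, SE 0.16, limma adjusted p = 0.016), and *Tars2*, for threonine, rose from 10.7 to 16.5 TPM (log2 fold change 0.60, SE 0.16, limma adjusted p = 0.038). *Cars2*, for cysteine, fell from 8.34 to 4.21 TPM (log2 fold change -0.84, SE 0.15, limma adjusted p = 0.014). Of 8 regulators of mitochondrial gene programmes, 7 were tested and 3 rose, or 42.9% of those tested beside 10.5% over all genes. With 1 library left out, only 0 to 2 of them were called higher, so this count is not stable. *Nrf1*, a factor at the promoters of many respiratory chain genes, was at 7.50 ± 1.38 TPM in WT and 13.3 ± 2.40 TPM in *Mir140*-null (SD, n = 4 each, log2 fold change 0.75, SE 0.18, limma adjusted p = 0.029). *Gabpb1*, a subunit of the factor also called nuclear respiratory factor 2, rose from 18.9 to 33.9 TPM (log2 fold change 0.78, SE 0.17, limma adjusted p = 0.020), and the coactivator *Pprc1* rose from 34.6 to 65.9 TPM (log2 fold change 0.84, SE 0.24, limma adjusted p = 0.049). *Ppargc1a*, the coactivator best known for raising mitochondrial content, did not pass the test, at 2.36 TPM in WT and 0.959 TPM in *Mir140*-null (limma adjusted p = 0.073).

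The nuclear subunits of the same complexes were tested next. Of 82 nuclear genes of complexes I to V, 81 were tested, 8 rose and 1 fell (9.88% and 1.23% of those tested), with a median log2 fold change of 0.06. In complex I, 0 of 36 nuclear genes passed the limma test in either direction, with a median of -0.03 and a range of -0.62 to 0.34, below the 0.68 to 1.39 of the 7 mitochondrial subunits, a difference that was not tested. At an unadjusted p under 0.05 the count in complex I was 3. In complex III, 3 of 9 rose: *Uqcrfs1*, the Rieske iron-sulphur protein, was at 18.2 ± 0.495 TPM in WT and 30.8 ± 3.74 TPM in *Mir140*-null (SD, n = 4 each, log2 fold change 0.72, SE 0.11, limma adjusted p = 0.0085), *Uqcrc1* went from 31.9 to 46.0 TPM (log2 fold change 0.52, SE 0.10, limma adjusted p = 0.017) and *Uqcrq* from 72.8 to 113 TPM (log2 fold change 0.61, SE 0.12, limma adjusted p = 0.017). In complex IV, *Cox8a* rose from 89.6 to 145 TPM (log2 fold change 0.69, SE 0.10, limma adjusted p = 0.0083) and *Cox5a* from 33.8 to 51.0 TPM (log2 fold change 0.58, SE 0.12, limma adjusted p = 0.019). *Cox6b2*, an isoform best known from testis, fell from 12.2 to 5.88 TPM (log2 fold change -0.99, SE 0.28, limma adjusted p = 0.045). In complex V, the catalytic subunit gene *Atp5b* rose from 273 to 341 TPM (log2 fold change 0.32, SE 0.09, limma adjusted p = 0.041), and *Atp5g2* and *Atp5g3*, which encode the same ring subunit, rose by 0.83 (SE 0.23, limma adjusted p = 0.044) and 0.42 (SE 0.11, limma adjusted p = 0.033) on the log2 scale. Complex II, which has no mitochondrial subunit, had 0 of 4 called.

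**Figure D5:**
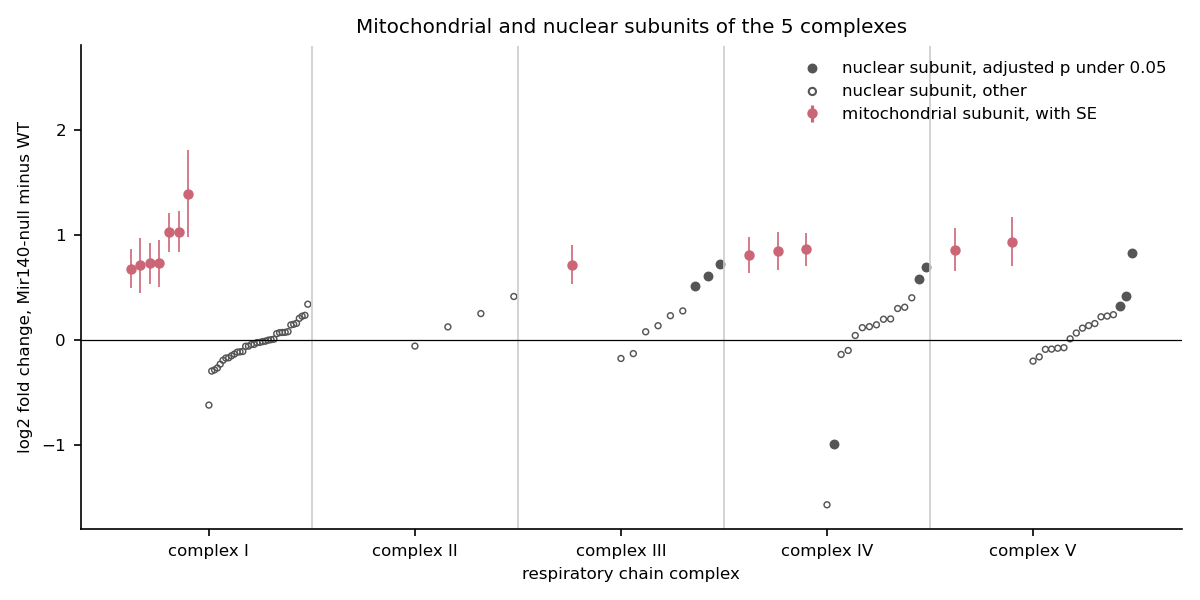
Log2 fold change (vertical axis, *Mir140*-null minus WT) of the subunits of each respiratory chain complex (horizontal axis), with mitochondrial subunits in red with their SE and nuclear subunits in grey, filled where limma’s adjusted p was under 0.05; vertical lines separate the complexes. The red points lie between 0.68 and 1.39, and the grey points of complex I lie between -0.62 and 0.34.

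These nuclear calls depended on single libraries. Of the 23 named nuclear genes that passed the test, *Cars2*, *Cox8a*, *Gars*, *Polg2*, *Tfb2m*, *Uqcrfs1* and *Yars2* passed in each of the 8 fits without 1 library, and the other 16 lost the call in 1 to 7 of these fits. Leaving out WT replicates 1, 2, 3 and 4 lost 11, 7, 13 and 14 of the 23 calls, and leaving out *Mir140*-null replicates 1, 2, 3 and 4 lost 9, 12, 4 and 5.

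Markers of other cell types were checked, since muscle and brown fat are rich in mitochondria. Of 10 muscle markers, 5 passed the filter, and *Ckm*, *Myh3*, *Myh4* and *Myh8* were under 0.5 TPM in all libraries. The list summed to 68.6 to 105 TPM in WT and 34.7 to 59.8 TPM in *Mir140*-null. *Ucp1*, which defines brown fat, was at most 0.15 TPM, *Cfd* was listed at 0 throughout, and the 6 adipocyte markers summed to 29.2 to 69.7 TPM in WT and 31.6 to 81.1 TPM in *Mir140*-null. The 6 markers of red blood cells, which have no mitochondria when mature, summed to 646 to 1854 and 257 to 1725 TPM. The 6 macrophage and leukocyte markers summed to 35.1 to 61.1 TPM in WT and 69.5 to 133 TPM in *Mir140*-null, a gap carried by *Cd14* (limma adjusted p = 0.017), while *Lyz2* fell (limma adjusted p = 0.024), a call that was lost without WT replicate 2 or 3 or *Mir140*-null replicate 1 or 2, and *Ptprc* and *Adgre1* were at most 0.59 and 0.169 TPM. The 4 endothelial markers summed to 2.82 to 23.0 TPM, and the 5 osteoblast and osteoclast markers to 29.8 to 71.5 TPM, both overlapping. The 5 fibroblast markers summed to 5509, 3069, 5892 and 3264 TPM in WT replicates 1 to 4 and 552, 704, 5239.6 and 3804 TPM in *Mir140*-null replicates 1 to 4. *Mir140*-null replicates 1 and 2 thus stood apart from replicates 3 and 4. Of 10 chondrocyte markers, *Acan* rose and *Col9a1*, *Col11a1* and *Hapln1* fell. The calls of *Acan* and *Hapln1* were kept in all 8 fits without 1 library, whereas those of *Col9a1* and *Col11a1* were kept only without *Mir140*-null replicate 4, and the number of these markers called lower was 1 in place of 3 in the other 7 fits, with median-ratio scaling, quantile normalization, no filter and the replicate number as a block. The part of cell makeup in the mitochondrial values was not tested.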

How the data were processed

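The deposited files, 1 per library, held transcripts per 1000000 (TPM) per gene, made by the authors with Salmon from 75-base single-end reads of poly(A)-selected, stranded RNA against the mm10 transcriptome. FastQC 0.11.7, Salmon and DESeq2 are named in the submitters' processing notes. The strand setting and the mitochondrial reference used are not given in the sources used here. Repeated identifiers (52865 lines, 52325 identifiers) held identical values and were counted once, after which each library summed to 1000000. Symbols and sequences came from GENCODE M21. TPM are not counts, so limma 3.58.1 (R 4.3.3) was fitted on log2(TPM + 1) with genotype as the only term, a mean-variance trend, and a filter that kept genes reaching 0.5 TPM in 4 or more libraries. Tests were two-sided, adjusted by the Benjamini-Hochberg method over all 17177 genes tested, and called at an adjusted p under 0.05. Fold changes are therefore on the log2(TPM + 1) scale, which understates changes of low genes. The fit was tested on simulated data. Nuclear copies were found with blastn 2.17.0 (at least 90% identity over at least 50% of a gene). The members and the gene lists were chosen with earlier results of these data known. Named nuclear genes were, in each list, up to 4 called genes with the smallest p in each direction, and, called or not, *Tfam*, *Polrmt*, *Twnk*, *Lrpprc*, *Slirp*, *Mtpap*, *Pnpt1*, *Supv3l1*, *Elac2*, *Trmt10c* and *Ppargc1a*. Scaling, filter, pseudocount, added terms, nuclear copies and the leaving out of each library were varied. The number of libraries, 4 per genotype, limits the precision.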

Additional observations from a re-analysis of the deposited data

Results flagged for a closer look

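In groups of 4 libraries, a highest or lowest value that stood apart from the other 3 by more than Dixon's 95% limit was looked for in 194 groups, of which chance flags about 1 in 20, and 18 stood apart. Many transfer RNA groups hold 0 and a few steps, so a single step can meet the limit.

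*Mir140*-null replicate 1 stood apart on the plus strand, with 461 TPM of *mt-Tg* (15.1 to 42.4 in the other 3 *Mir140*-null libraries), 346 TPM of *mt-Th* (15.1 to 52.9), 346 TPM of *mt-Ts2* (0 to 35.3), 16.5 TPM of *mt-Tf* and 32.9 TPM of *mt-Tr* (both listed at 0 in the others). It also had the highest ratio of *mt-Nd1* to *mt-Rnr2*, 1.32. *Mir140*-null replicate 3 had the highest ratio of *mt-Nd4l* to *mt-Nd4*, 2.61, and the highest summed TPM of the 2 complex V genes, 34016.4.

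Among WT libraries, *mt-Tv* was at 33.7 TPM in replicate 3, *mt-Ti* at 43.1 TPM in replicate 4 and *mt-Td* at 17.8 TPM in replicate 1, each listed at 0 in the other 3. *mt-Ta* was at 109.9 TPM in WT replicate 2 (33.7 to 43.1 in the others), and *mt-Tg* was listed at 0 in WT replicate 4 (15.7 to 17.8).

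Of the nuclear genes, *Tfb2m* was lowest in WT replicate 4, at 8.07 TPM, and in *Mir140*-null replicate 3, at 21.8 TPM. *Cars2* was lowest in the library labelled *Mir140*-null replicate 2, at 3.32 TPM. *Supv3l1* was highest in WT replicate 2, at 13.98 TPM, and *Trmt10c* in WT replicate 1, at 9.26 TPM.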

How the results depend on the processing

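The log2 difference in the summed messenger RNAs was 0.84 and ranged from 0.73 to 1.01 when 1 library was left out and from 0.78 to 0.88 under other scalings and additions of nuclear copies, including 2 settings chosen after seeing the data (copies of at least 75 bases added, 0.81, and the sum without *mt-Atp8* and *mt-Nd3*, 0.83). The number of mitochondrial genes called higher was 15, ranged from 8 (without WT replicate 4) to 14 when 1 library was left out, was 9 without the library labelled *Mir140*-null replicate 2, and was 6 with no filter, where 36617 genes are tested. It was 14 to 17 under every other setting tried, and 0 were called lower under any.

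Nuclear genes of mitochondrial maintenance and expression called higher numbered 8, against 3 with no filter, 15 with 1 factor from the residuals and 3 to 8 without 1 library. Those called lower numbered 3, against 5 with quantile normalization and 2 to 4 without 1 library. Nuclear subunits called higher numbered 8, against 5 with quantile normalization, 5 with no filter and 3 to 8 without 1 library. The single subunit called lower, *Cox6b2*, was lost with a pseudocount of 0.1 and with no filter (0 called), and the count was 2 with median-ratio scaling and without genes under 200 bases, 3 with quantile normalization, 3 with 1 factor, and 0 to 3 without 1 library. Over all genes, 2897 were called, against 1516 with no filter, 4476 with 1 factor, and 1164 to 2802 without 1 library. *Lrpprc*, at 0.11, ranged from -0.027 (without *Mir140*-null replicate 1) to 0.25 when 1 library was left out. *Slirp*, at -0.00059, turned to 0.033 with median-ratio scaling and to 0.014 when scaled to nuclear protein-coding genes, and ranged from -0.096 to 0.098 when 1 library was left out. Except where a setting tests more genes or fewer libraries, the cause of these changes was not tested.

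WT and *Mir140*-null libraries share replicate numbers, but same-numbered libraries did not deviate together over genes (correlations of 0.03, 0.02, 0.07 and -0.01), so the numbers were not taken as pairs. With the replicate number as a block, 14 mitochondrial genes were called higher, 2 genes of maintenance and expression higher and 2 lower, 2 nuclear subunits higher and 0 lower, and 1125 genes in all.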
